A study of Mus musculus with 16 samples.

Results

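Levels of 10 genes were followed: the CSF1 receptor ligands Csf1 and Il34, the growth factor receptor genes Csf1r, Csf2ra, Csf2rb and Csf3r, and the myeloid transcription factor genes Spi1, Irf8, Runx1 and Cebpa. They were chosen by symbol, and all 10 were found among the 18167 genes of the expression table. Whole spinal cord RNA of 16 transgenic mice, each listed as a separate animal and library, had been sequenced to compare mice carrying mutant human profilin 1 (PFN1), a gene linked to amyotrophic lateral sclerosis, with mice carrying the normal human gene. The mutant young (MY, n = 3, 50 days old) and mutant old (MO, n = 5, end stage of disease) mice were C57BL/6N mice of the line 838Kiaei/J with the transgene Tg(Prnp-PFN1*G118V). The wild-type young (WY, n = 3, 50 days old) and wild-type old (WO, n = 5) mice were C57BL/6N mice of the line 850Kiaei/J with the transgene Tg(Prnp-PFN1). All 4 groups therefore carried a human PFN1 transgene driven by the Prnp promoter, each genotype was represented by 1 transgenic line, and non-transgenic mice were not analysed here. The MO mice were 198, 190, 245, 224 and 175 days old in the order MO1 to MO5. WO1 to WO3 were 190 days old, and WO4 and WO5 were 294 days old. MO4, MO5, WO4 and WO5 formed batch 2, and the other 12 mice, with all young animals, formed batch 1. All mice were labelled male.

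CSF1 and interleukin 34 are separate ligands of the same receptor tyrosine kinase, CSF1R, on which microglia depend for their survival; in the nervous system, interleukin 34 is made mainly by neurons. CSF2RA binds GM-CSF and signals through the common beta chain encoded by Csf2rb, whereas CSF3R is the receptor for G-CSF and is best known from neutrophils. PU.1 (Spi1), IRF8, RUNX1 and C/EBPα are transcription factors of myeloid development, and PU.1 and IRF8 have roles in microglia.

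Levels are given as log2(1 + FPKM), where FPKM is the number of fragments per kilobase of transcript, scaled to the mapped fragments of each library, after adjustment for batch by the authors. FPKM values were obtained by reversing the logarithm and subtracting 1, and because they are scaled by length they were used to compare levels between genes. The depth behind single values is not used here. A gene was called when the limma p-value, adjusted over all 18167 genes by the Benjamini-Hochberg method (FDR), was at most 0.05 and the fold change was at least 1.5 on the scale of 1 + FPKM. That scale understates the change of genes with a low level. Differences are given as the second group minus the first, so that a positive value in WO vs. MO means a higher level in MO.

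The tissue label was checked against marker genes. The 6 Hox genes of the trunk spinal cord were detected in all 16 mice, with Hoxd8 the highest, between 5.03 and 5.48. The motor neuron gene Chat lay between 3.08 and 4.04 and the neuronal gene Snap25 between 10.08 and 10.72. MO5 went against the label male: Xist, which is transcribed from the inactive X chromosome, read 3.21 in MO5 and at most 0.37 in the other 15 mice. The Y-linked genes were lower in MO5 than in the other 15 mice but not absent: Ddx3y read 1.95 (at least 4.06 in the others), Eif2s3y 1.82 (3.66), Kdm5d 1.07 (2.16) and Uty 1.05 (2.03). A female mouse and a library mixed from more than 1 mouse cannot be told apart here, and the effect of the batch adjustment on these values was not tested, so each value printed for MO5 may not be that of a single male mouse. The differences of the 10 genes were also fitted without MO5; group means, FPKM ratios, shares of separated genes and list values include it. In WO4, the myelin gene Mbp was listed at 5.36, against 12.16 to 14.22 in the other 15 mice. Without MO5, or without WO4, the number of the 10 genes called in each comparison with MO was the same as with them, 9.

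Of the 10 genes, 9, all but Il34, were called higher in MO than in WO, and the same 9 were called higher in MO than in MY. None of the 10 was called lower in either comparison. Among all genes, 4.08% were called higher and 0.517% lower in WO vs. MO, and 4.11% were called higher and 0.787% lower in MY vs. MO. The number called lower in MY vs. MO, 143, was 258 with batch 1 alone. With 0.1 in place of 1 added to FPKM, 1272 genes were called higher and 257 lower in WO vs. MO (742 and 94 with 1). In MY vs. MO these numbers were 1233 and 250 (747 and 143 with 1). Each of the 9 genes was higher in every MO mouse than in all 11 other mice, a separation seen in 7.58% of all genes. Every MO mouse lay above every WO mouse in 9 of the 10 genes and in 11.3% of all genes, and above every MY mouse in 9 of the 10 genes and in 15.7% of all genes. The comparisons WO vs. MO and MY vs. MO share the 5 MO mice. In whole spinal cord, more cells of a type and more RNA per cell cannot be told apart. The median difference over the 10 genes was 1.196 in WO vs. MO and 1.156 in MY vs. MO, beside medians of 0.00035 and 0.0047 over all genes tested.

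**Figure D1:**
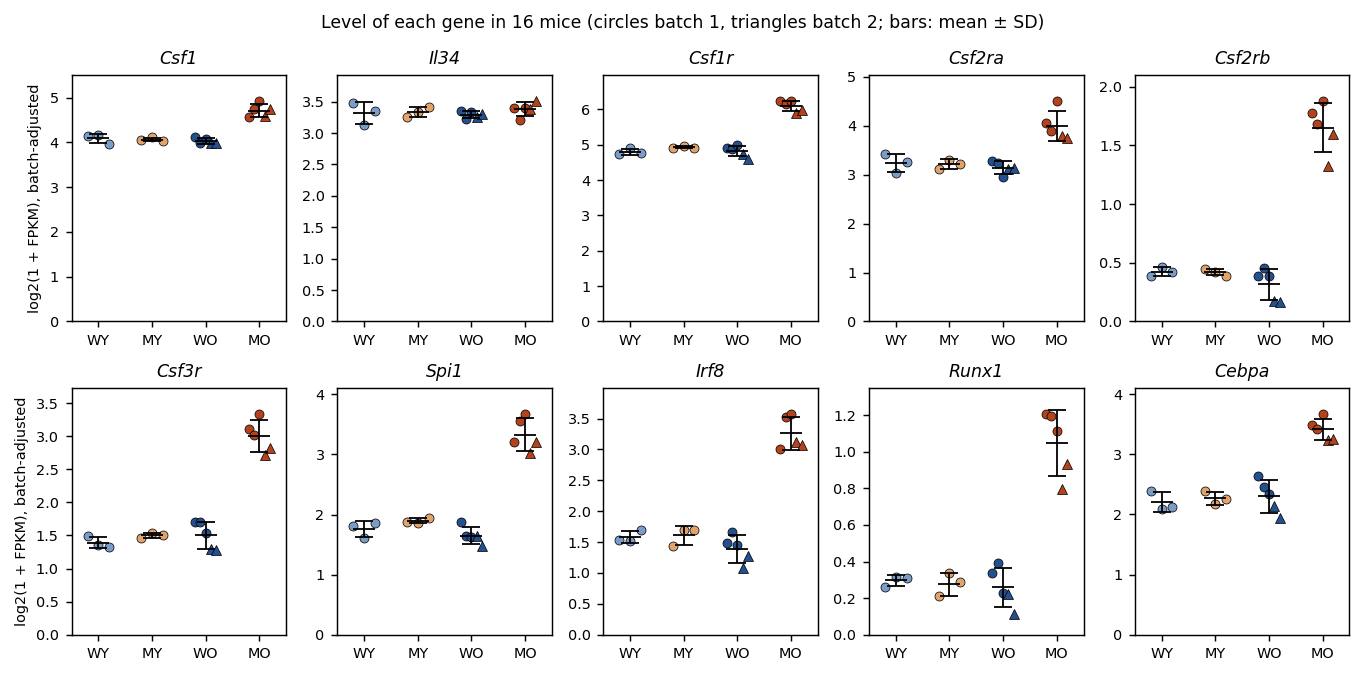
Level of each of the 10 genes, in log2(1 + FPKM) after batch adjustment, in the WY (n = 3), MY (n = 3), WO (n = 5) and MO (n = 5) mice; each symbol is 1 mouse, circles are batch 1 and triangles batch 2, and bars give the mean and SD. In all panels but that of Il34, the 5 MO mice sit above the other 11 mice.

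Csf1 rose in the old mutant mice, and Il34, the other ligand of the same receptor, did not pass the test. Csf1 read 4.56, 4.74, 4.93, 4.58 and 4.76 in MO1 to MO5. It read 4.12, 4.00, 4.07, 3.99 and 3.99 in WO1 to WO5, 4.05, 4.11 and 4.03 in the MY mice and 4.16, 4.16 and 3.98 in the WY mice. The lowest MO mouse, MO1, lay 0.40 above the highest of the other 11 mice, and MO3, the oldest MO mouse, was the highest. Csf1 was 0.68 higher in MO than in WO (SE 0.068, limma FDR = 5.97e-05) and 0.65 higher in MO than in MY (SE 0.082, limma FDR = 0.00108). On the FPKM scale the mean was 25.4 ± 2.77 (SD, n = 5) in MO and 15.4 ± 0.667 (SD, n = 5) in WO, a ratio of 1.65.

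Il34 read 3.40, 3.21, 3.40, 3.38 and 3.51 in MO1 to MO5. The WO mice read 3.36, 3.22, 3.33, 3.26 and 3.30, the MY mice 3.26, 3.33 and 3.41 and the WY mice 3.47, 3.13 and 3.35. The 4 groups overlapped, and the lowest MO mouse (MO2, 3.21) lay below all 5 WO mice. The difference in WO vs. MO was 0.089 (95% interval −0.032 to 0.21, limma FDR = 0.269), and in MY vs. MO it was 0.048 (95% interval −0.11 to 0.20, limma FDR = 0.678).

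Csf1 had a higher FPKM than Il34 in all 16 mice, and the ratio between the ligand transcripts was highest in MO. The FPKM of Csf1 divided by that of Il34 was 2.37, 3.12, 3.07, 2.44 and 2.51 in MO1 to MO5. In the WO mice this ratio was 1.77, 1.81, 1.75, 1.75 and 1.69. It was 1.82, 1.80 and 1.59 in the MY mice and 1.67, 2.17 and 1.60 in the WY mice. All 5 MO mice lay above the other 11, and the 5 WO mice were spread over the narrowest range (SD 0.0441, against 0.365 in MO). WY2, the young wild-type mouse with the highest ratio, had the lowest Il34 level of the 16 mice, 3.13.

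Csf1r had the highest FPKM of the 10 genes in both WO and MO. It read 6.22, 6.14, 6.23, 5.91 and 5.97 in MO1 to MO5 and 4.90, 4.87, 4.98, 4.73 and 4.61 in WO1 to WO5. The young mice read 4.91, 4.96 and 4.91 in MY and 4.75, 4.90 and 4.75 in WY. The MO mice lay at least 0.93 above every other mouse. The mean FPKM was 67.7 ± 6.94 (SD, n = 5) in MO and 27.3 ± 2.85 (SD, n = 5) in WO, a ratio of 2.48. Csf1r was 1.28 higher in MO than in WO (SE 0.086, limma FDR = 1.497e-05) and 1.17 higher in MO than in MY (SE 0.081, limma FDR = 0.000203). Exons of Csf1r overlap exons of Hmgxb3 on the opposite strand. Libraries were made with a kit that marks the strand, but whether strand was used in counting is not given in the sources used here, so the levels of the pair could be mixed. Hmgxb3 itself was not called in WO vs. MO (difference −0.13, limma FDR = 0.0274).

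Csf2ra, the ligand-binding chain of the GM-CSF receptor, read 4.05, 3.89, 4.51, 3.79 and 3.75 in MO1 to MO5. It read 3.28, 3.23, 2.94, 3.11 and 3.13 in WO1 to WO5, 3.12, 3.31 and 3.23 in MY and 3.42, 3.04 and 3.25 in WY. MO3 was the highest mouse, with MO1 next to it, and the MO group had the largest spread of the 4 groups (SD 0.31). The separation from the other mice was the narrowest among the 9 genes, with the lowest MO mouse, MO5, 0.33 above the highest of the others, WY1. Csf2ra was 0.86 higher in MO than in WO (SE 0.13, limma FDR = 0.00087) and 0.78 higher in MO than in MY (SE 0.16, limma FDR = 0.00902). When limma tested against a fold change of 1.2 in place of no change, the call in MY vs. MO was lost (FDR = 0.111).

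Csf2rb, the signalling chain shared by the receptors of GM-CSF, interleukin 3 and interleukin 5, was low in the 11 mice outside MO. It read 1.78, 1.68, 1.88, 1.33 and 1.60 in MO1 to MO5 and 0.39, 0.46, 0.39, 0.18 and 0.17 in WO1 to WO5. The young mice read 0.45, 0.43 and 0.39 in MY and 0.39, 0.47 and 0.42 in WY. WO4 and WO5, both of batch 2, were the lowest of the 16 mice, and MO4, of the same batch, was the lowest MO mouse. The mean FPKM was 0.249 ± 0.115 (SD, n = 5) in WO and 2.17 ± 0.445 (SD, n = 5) in MO, the largest FPKM ratio of the 10 genes, 8.72. On the log2 scale the difference in WO vs. MO was 1.34 (SE 0.10, limma FDR = 2.16e-05), and in MY vs. MO it was 1.23 (SE 0.11, limma FDR = 0.000315). With 0.1 in place of 1 added to FPKM, these differences were 2.75 and 2.35. The paralog Csf2rb2, which lies beside Csf2rb and can share reads with it, read 0.163 ± 0.0792 FPKM in WO and 1.40 ± 0.324 FPKM in MO (SD, n = 5 each), a ratio of 8.58. How reads were divided between the paralogs is not given in the sources used here, so the separate levels of Csf2rb and Csf2rb2 are uncertain.

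Csf3r, the G-CSF receptor, had the largest difference in log2(1 + FPKM) of the 4 receptor genes in WO vs. MO. It read 3.11, 3.02, 3.33, 2.72 and 2.83 in MO1 to MO5 and 1.70, 1.70, 1.53, 1.30 and 1.29 in WO1 to WO5. The young mice read 1.46, 1.54 and 1.51 in MY and 1.49, 1.35 and 1.33 in WY. All MO mice lay at least 1.02 above the rest, and WO4 and WO5 were again the lowest of the 16. The difference was 1.496 in WO vs. MO (SE 0.13, limma FDR = 2.48e-05) and 1.498 in MY vs. MO (SE 0.12, limma FDR = 0.000278). Of the 10 neutrophil genes found in the table none was called higher in MO. Mmp9, which is not restricted to neutrophils, was called lower in WO vs. MO (difference −0.70, limma FDR = 5.05e-05). It was the most abundant of the 10 by mean FPKM over all 16 mice but not in WO, where S100a8 was higher. The summed level of these 10 genes was 6.98 ± 3.54 FPKM in MO and 17.2 ± 13.9 FPKM in WO (SD, n = 5 each), with WO2 the highest mouse at 41.8 FPKM. Without WO2 the WO mean was 10.99 ± 2.45 FPKM (SD, n = 4). The young mice gave 8.37 ± 1.87 FPKM in MY and 6.10 ± 1.175 FPKM in WY (SD, n = 3 each), so the MO mean lay between those of the young groups and the WO mean above all others. The cells from which the Csf3r and Mmp9 transcripts came were not tested.

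Spi1, which encodes PU.1, read 3.21, 3.55, 3.67, 3.02 and 3.20 in MO1 to MO5. It read 1.88, 1.64, 1.62, 1.64 and 1.48 in WO1 to WO5, 1.88, 1.86 and 1.94 in MY and 1.81, 1.61 and 1.86 in WY. The lowest MO mouse, MO4, was 1.08 above the highest other mouse, MY3. The mean FPKM was 9.20 ± 1.93 (SD, n = 5) in MO and 2.15 ± 0.325 (SD, n = 5) in WO, a ratio of 4.27. Spi1 was 1.68 higher in MO than in WO (SE 0.12, limma FDR = 2.16e-05) and 1.44 higher in MO than in MY (SE 0.14, limma FDR = 0.000379).

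Irf8, a partner of PU.1 on DNA, showed the largest difference in log2(1 + FPKM) of the 10 genes in both comparisons with MO, although Csf2rb and Runx1 had larger FPKM ratios between MO and WO. It read 3.01, 3.52, 3.57, 3.12 and 3.08 in MO1 to MO5 and 1.48, 1.66, 1.46, 1.08 and 1.27 in WO1 to WO5. The young mice read 1.43, 1.70 and 1.70 in MY and 1.54, 1.52 and 1.69 in WY. MO2 and MO3 stood above the other 3 MO mice, and the lowest MO mouse, MO1, was 1.31 above the highest of the other groups. Irf8 was 1.87 higher in MO than in WO (SE 0.14, limma FDR = 2.16e-05), where it ranked 82 by increase among all genes, and 1.65 higher in MO than in MY (SE 0.15, limma FDR = 0.000314). The mean FPKM was 8.72 ± 1.82 (SD, n = 5) in MO and 1.64 ± 0.402 (SD, n = 5) in WO.

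Runx1, a factor of early blood development, had the lowest FPKM of the 10 genes in both WO and MO. It read 1.204, 1.196, 1.11, 0.79 and 0.93 in MO1 to MO5, 0.34, 0.39, 0.23, 0.22 and 0.11 in WO1 to WO5, 0.21, 0.33 and 0.29 in MY and 0.26, 0.31 and 0.31 in WY. The batch 2 mice MO4 and MO5 were the lowest of MO, and every MO mouse lay at least 0.40 above the others. The mean FPKM was 0.199 ± 0.0890 (SD, n = 5) in WO and 1.08 ± 0.250 (SD, n = 5) in MO, a ratio of 5.43, while on the log2 scale the difference was 0.79 in WO vs. MO (SE 0.086, limma FDR = 9.67e-05) and 0.77 in MY vs. MO (SE 0.098, limma FDR = 0.00105). With 0.1 in place of 1 added to FPKM, these differences were 2.01 and 1.90.

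Cebpa, which encodes a factor of granulocyte and monocyte development, read 3.49, 3.43, 3.66, 3.23 and 3.25 in MO1 to MO5. It read 2.64, 2.45, 2.34, 2.14 and 1.94 in WO1 to WO5, 2.39, 2.17 and 2.25 in MY and 2.40, 2.09 and 2.13 in WY. The WO mice were spread widely (SD 0.27), from WO5 at 1.94 to WO1 at 2.64, and still lay at least 0.59 below the lowest MO mouse. Cebpa was 1.11 higher in MO than in WO (SE 0.13, limma FDR = 0.000153) and 1.14 higher in MO than in MY (SE 0.10, limma FDR = 0.000314). Exons of other annotated genes overlap those of Il34 (Gm15894, Gm15895), Runx1 (Gm26626) and Cebpa (Gm45091) on the opposite strand; these genes were not analysed here. Csf2rb overlaps the microRNA gene Mir7676-2 on its own strand.

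In the order of FPKM in WO, Csf1r stood first, followed by Csf1, Il34, Csf2ra, Cebpa, Spi1, Csf3r, Irf8, Csf2rb and Runx1. Csf1r (27.3 ± 2.85 FPKM) and Csf1 (15.4 ± 0.667 FPKM; SD, n = 5 each) stood clear of the rest. Neighbours in this order whose WO mice overlapped were Il34 (8.30 to 9.26 FPKM) and Csf2ra (6.70 to 8.75 FPKM), and likewise Spi1 (1.78 to 2.68 FPKM), Csf3r (1.44 to 2.26 FPKM) and Irf8 (1.11 to 2.17 FPKM). The WO mice also overlapped in Csf2rb (0.122 to 0.373 FPKM) and Runx1 (0.0820 to 0.310 FPKM). In MO, Csf2ra (12.5 to 21.7 FPKM) stood above Il34 (8.23 to 10.4 FPKM) without overlap. Il34 then shared its range with Cebpa (8.41 to 11.7 FPKM), Spi1 (7.10 to 11.7 FPKM), Irf8 (7.03 to 10.9 FPKM) and Csf3r (5.60 to 9.06 FPKM). The FPKM of all 10 genes summed to 156 ± 17.8 in MO and 69.5 ± 5.46 in WO (SD, n = 5 each), and to 73.6 ± 1.69 in MY and 70.7 ± 2.49 in WY (SD, n = 3 each).

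Mice of 1 group were not alike. MO3, 245 days old, was the highest MO mouse in 8 of the 9 genes that rose, Runx1 being the exception, and MO4, 224 days old and of batch 2, was the lowest in 6 of them. WO5, 294 days old and of batch 2, was the lowest WO mouse in 7 of the 9 genes. The mean of the batch 2 mice was below that of the batch 1 mice in all 9 genes in both WO and MO, with single mice overlapping in Csf1 and Irf8 in MO and in Csf2ra and Spi1 in WO, although the values had been adjusted for batch: the shift for Cebpa was −0.44 in WO and −0.29 in MO, and for Csf1r it was −0.25 and −0.26. In WO, age and batch cannot be told apart, since the batch 2 mice were also the oldest. Within each batch the difference between MO and WO was close to the pooled one. For Csf1r it was 1.28 in batch 1 and 1.27 in batch 2, for Irf8 1.83 and 1.93, for Spi1 1.76 and 1.55, and for Csf1 0.68 and 0.68. Csf2ra showed the largest gap between batches, 1.00 in batch 1 and 0.65 in batch 2. With the mice of batch 1 alone (n = 3 each), and with those of batch 2 alone (n = 2 each), the same number of genes, 9, was called in WO vs. MO. All MY mice belonged to batch 1, and against the 3 MO mice of batch 1 the number called was 9 as well. Without MO5, the 9 differences ranged from 0.67 (Csf1) to 1.92 (Irf8) in WO vs. MO and from 0.64 (Csf1) to 1.70 (Irf8) in MY vs. MO.

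Age in wild-type mice and genotype in young mice were compared in the same way. In WY vs. WO, limma called none of the 10 genes, beside 0.253% of all genes (46 genes; 7 without WY3, 23 without WY1, 26 without WO2 and 80 with batch as a term), and none of the 10 had an unadjusted p at or below 0.05, beside 2447 genes of the table. The differences ranged from −0.20 for Irf8 (95% interval −0.47 to 0.084, limma FDR = 0.562) to 0.11 for Csf3r (95% interval −0.14 to 0.37, limma FDR = 0.752). In WY vs. MY, limma called none of the 10 genes, beside 0.0055% of all genes (1 gene), and none had an unadjusted p at or below 0.05, beside 1301 genes. The smallest unadjusted p belonged to Csf1r, which was 0.13 higher in MY (95% interval −0.0030 to 0.26, limma FDR = 0.695). Spi1 was 0.14 higher in MY (95% interval −0.040 to 0.31, limma FDR = 0.718). In Csf1r and Spi1, 2 of the 10 genes, every MY mouse lay above every WY mouse, an order found in 6.15% of all genes.

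**Figure D2:**
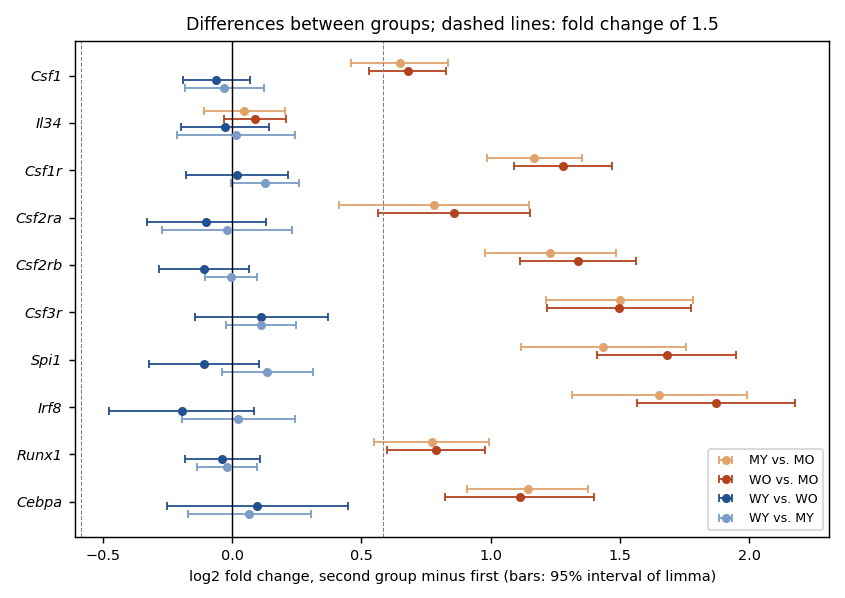
Difference in log2(1 + FPKM) for each of the 10 genes in the 4 comparisons, as the second group minus the first; points are limma estimates, bars their 95% intervals, and dashed lines mark a fold change of 1.5. In MY vs. MO and WO vs. MO the estimates of all genes but Il34 lie to the right of the upper dashed line, from 0.65 to 1.87, whereas in WY vs. WO and WY vs. MY they lie between −0.20 and 0.14.

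The test of whether the difference between old and young mice itself differed between the genotypes, (MO − MY) − (WO − WY), called the same 9 genes higher, beside 4.65% of all genes called positive and 0.963% called negative. The number called negative, 175, was 78 without WY1, 366 without WY2 and 45 in a limma test against a fold change of 1.2. None of the 10 was called negative, and for Il34 the value was 0.075 (95% interval −0.15 to 0.30, limma FDR = 0.691). The largest value on the log2(1 + FPKM) scale was that of Irf8, 1.85 (SE 0.20, limma FDR = 6.51e-05), and the smallest of the 9 that of Csf1, 0.71 (SE 0.10, limma FDR = 0.000347). For Csf2ra, the call was lost when limma tested against a fold change of 1.2 (FDR = 0.105).

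Of 12 further cytokine and receptor genes found in the table, some of them from other families, 5 rose and none fell in both WO vs. MO and MY vs. MO, beside 4.08% and 4.11% of all genes called higher. Their median difference was 0.16 in WO vs. MO, beside 0.00035 over all genes. The genes that rose were Il3ra, which pairs with the beta chain of Csf2rb (1.18, SE 0.13, limma FDR = 0.000134), the TGF-β receptor genes Tgfbr1 (1.10, SE 0.098, limma FDR = 3.31e-05) and Tgfbr2 (0.87, limma FDR = 0.000158), the ligand gene Tgfb1 (1.08, SE 0.12, limma FDR = 0.000131) and Csf2rb2. TGF-β is a factor on which the microglial state depends. The receptor genes of other blood lineages gave small differences in WO vs. MO: Kit 0.016 and Epor −0.048. Flt3 was lower in MO (difference −0.36, limma FDR = 0.000234) but below the fold change required. The genes of GM-CSF, G-CSF and interleukin 3 (Csf2, Csf3 and Il3) were not among the 18167 genes, so their levels were not analysed here.

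Of 27 genes that act downstream of CSF1R or in its adaptor pathway, 12 rose and none fell in both comparisons with MO. Among all genes, 4.08% were called higher in WO vs. MO and 4.11% in MY vs. MO. The median of the 27 genes was 0.18 in WO vs. MO. Tyrobp, the adaptor DAP12, was the most abundant in MO but not in the other groups and had the largest difference in log2(1 + FPKM) (2.70, SE 0.32, limma FDR = 0.000169), followed by the phosphatase gene Ptpn6 (1.67, SE 0.15, limma FDR = 3.66e-05) and the GTPase gene Rac2 (1.22, SE 0.10, limma FDR = 2.34e-05). Others of the 12 were the kinase genes Lyn (1.21), Syk (0.95) and Fgr (0.87), together with Inpp5d (1.203), Vav1 (1.18), Pik3ap1 (0.96), Plcg2 (0.87) and Pik3cg (0.85). The other 15 genes were not called. Among them Stat3 was 0.48 higher in MO (limma FDR = 3.93e-05), below the fold change required, and Pik3cd gave 0.18 (limma FDR = 0.0502). Grb2 gave 0.032, Mapk3 0.045, Akt1 −0.070 and Pik3r1 −0.033 in WO vs. MO.

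Of 36 further transcription factor genes of the myeloid lineage, 10 rose and none fell in WO vs. MO, beside 4.08% of all genes called higher. The median of the 36 there was 0.27. In MY vs. MO, 11 rose and none fell, beside 4.11% of all genes called higher. The largest increases were those of Cebpd (1.64, SE 0.21, limma FDR = 0.000234), Irf5 (1.28, SE 0.10, limma FDR = 2.16e-05) and Cebpb (1.10, SE 0.18, limma FDR = 0.00143). Others of the 10 were Irf7 (1.06), Ikzf1 (0.94), Lyl1 (0.82), Egr2 (0.82), Batf3 (0.72) and Irf9 (0.71). Fli1 was called in MY vs. MO (0.64) and not in WO vs. MO (0.56). Sall1, a factor gene that marks microglia but is also used by other cells of the nervous system, gave −0.0061 in WO vs. MO, and Id2, the most abundant of the 36, gave 0.22 (limma FDR = 0.226). Relatives of Runx1 did not pass the test, with 0.015 for Runx2 and 0.041 for Runx3, whose levels in WO were 0.78 and 0.015. Cbfb, the shared partner subunit of the RUNX factors, was 0.22 higher in MO (limma FDR = 0.00532), below the fold change required.

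Markers of microglia moved with the 9 genes. All 12 pan-microglial genes rose in both comparisons, beside 4.08% (WO vs. MO) and 4.11% (MY vs. MO) of all genes. The medians of the 12 were 2.05 in WO vs. MO and 2.10 in MY vs. MO. Each of the 10 genes followed here changed by less than these medians on the log2(1 + FPKM) scale, which holds down low genes. On the FPKM scale the summed level of the 12 markers was 4.95 times as high in MO as in WO, and the ratios of Csf2rb (8.72), Runx1 (5.43) and Irf8 (5.30) were larger than that. Cd68 (3.22), C1qa (2.82) and C1qc (2.60) changed most in WO vs. MO, and Ctss was the most abundant. Their summed level was 1666, 2143, 2448, 1343 and 1496 FPKM in MO1 to MO5 and 409, 423, 452, 277 and 278 FPKM in WO1 to WO5. It lay between 329.5 and 364 FPKM in MY and between 317 and 372 FPKM in WY. MO3 was thus the highest and MO4 the lowest MO mouse, as in most of the 9 genes, and WO4 and WO5 were the lowest of all. The part of these markers in the change of the 9 genes was not tested.

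Genes that mark homeostatic microglia rose less uniformly. Of 10, 6 rose and none fell in each comparison with MO, beside 4.08% (WO vs. MO) and 4.11% (MY vs. MO) of all genes. The median of these markers in WO vs. MO was 0.67. Of the 10 genes followed here, 9 had a larger difference on the same scale. Csf1, 1 of the 9, was nearly level with that median (0.679 against 0.674, SE of the Csf1 difference 0.068). Of the homeostatic genes, Fcrls (2.95), Olfml3 (1.39) and Cx3cr1 (1.14) changed most. P2ry12 gave 0.098 (limma FDR = 0.623) and Siglech 0.26 (limma FDR = 0.0478), neither called. Fcrls was also called lower in WO than in WY (difference −0.91, limma FDR = 0.0461). The summed level was 969.7 ± 103 FPKM in MO and 608 ± 47.1 FPKM in WO (SD, n = 5 each), with Sparc, a gene also used by other cells, the most abundant. Sparc, which was not called, made up most of each sum, with means of 796.5 FPKM in MO and 529.4 FPKM in WO. The part of these markers was not tested.

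Markers of other myeloid and lymphoid cells were mostly low. In WO vs. MO, 4.08% of all genes were called higher and 0.517% lower. Of 7 genes of border-associated macrophages, Ms4a7 alone rose (1.90, SE 0.28, limma FDR = 0.000706), and Mrc1 (0.27 in WO, 0.50 in MO) and Cd163 (0.41 in both) were not called. The summed level of the 7 was 6.63 ± 2.26 FPKM in MO and 2.18 ± 0.535 FPKM in WO (SD, n = 5 each). Ms4a7 alone had a mean of 3.35 FPKM in MO, the highest of the 7 there. In WO, Pf4 was the highest of the 7, at 0.676 FPKM. None of the 5 monocyte genes was called in either direction; Ccr2 was near 0 (0.049 in WO, 0.10 in MO), and Vcan, which is not restricted to monocytes, was the most abundant. They summed to 9.09 ± 1.07 FPKM in MO and 6.69 ± 0.582 FPKM in WO (SD, n = 5 each). None of the 8 lymphocyte genes was called; they summed to 1.10 ± 0.222 FPKM in MO and 0.510 ± 0.250 FPKM in WO (SD, n = 5 each), with Cd79b the most abundant by mean FPKM in MO and Cd79a in WO. Among the neutrophil genes Mpo was near 0 (0.068 in WO, 0.069 in MO), and Ly6g and Elane were not among the genes of the table. The 7 mast cell genes were likewise not among them, and none of the 6 erythroid genes was called (48.2 ± 21.9 FPKM in MO and 79.1 ± 17.0 FPKM in WO, SD, n = 5 each, Hba-a1 the most abundant).

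Some markers of other cells of the spinal cord also differed between MO and WO, beside 4.08% of all genes called higher and 0.517% lower. Of 8 astrocyte genes, 3 rose in WO vs. MO, led by Gfap, the most abundant (1.60, SE 0.10, limma FDR = 1.46e-05), followed by Aqp4 (0.83) and Aldh1l1 (0.69); Aqp4 was also called lower in WO than in WY (difference −0.65, limma FDR = 0.0281). They summed to 4354 FPKM in MO and 2636 FPKM in WO. Among 8 neuronal genes, which summed to 2060.0 FPKM in MO and 2590.0 FPKM in WO with Snap25 the most abundant, Slc6a5 was called lower (difference −0.78), and among 6 motor neuron genes, which summed to 102 and 129 FPKM with Prph the most abundant, Chat was called lower (difference −0.67, limma FDR = 3.13e-05). Of 7 oligodendrocyte genes, 1 was called lower and none higher in WO vs. MO; their sums, with Mbp the most abundant gene, ranged from 5315 to 23950.0 FPKM within WO. The lowest was WO4, whose Mbp stood apart, and without it the lowest WO sum was 9515 FPKM. The highest was WO5, of batch 2, whereas WO1 to WO3 gave 10270, 9515 and 9547 FPKM. In MO, the batch 2 mice MO4 and MO5 gave 22280 and 21700 FPKM, and MO1 to MO3 gave 7205, 7708 and 7805 FPKM. None of the 6 endothelial genes was called (48.5 FPKM in MO, 64.7 FPKM in WO, Slco1a4 the most abundant in MO and Cldn5 in WO). Of 5 Schwann cell genes Egr2 alone rose (78.9 and 77.4 FPKM, Pmp22 the most abundant). None was called among 5 meningeal fibroblast genes (17.4 and 16.8 FPKM, Dcn the most abundant), 4 sensory neuron genes (0.625 and 0.267 FPKM, Avil the most abundant) and 5 skeletal muscle genes (0.682 and 0.897 FPKM, Acta1 the most abundant). Whether these differences had a part in the change of the 9 genes was not tested.

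For each of the 10 genes, the genes with the most similar course over the 16 mice were sought among 13530 genes with a mean level of at least 1. The values describe the 16 mice as a whole, in which the MO mice stood apart from the rest in 9 of the 10 genes. Csf1r was closest to Serpina3n (Pearson r = 0.996), Sprr1a (0.993) and Slc11a1 (0.993), and Csf1 to Nek6 (0.992), Pik3ap1 (0.991) and Ncf4 (0.990). Csf2rb was closest to Fyb (0.998), Nckap1l (0.996) and Fcgr2b (0.996), Csf3r to Lyz2 (0.996), Capg (0.995) and Lilrb4a (0.994), and Csf2ra to Rasa4 (0.966), Slc44a2 (0.965) and Dhrs3 (0.964). Among the transcription factors, Spi1 was closest to Tnfrsf1a (0.993), Ctsb (0.992) and Prdx6 (0.992), Irf8 to Fcgr1 (0.995), Socs3 (0.994) and Ccl3 (0.993), Runx1 to Ggta1 (0.990), Tlr7 (0.988) and Inpp5d (0.988), and Cebpa to Tcn2 (0.991), Arhgdib (0.988) and Csf3r (0.986). Il34 had no neighbour of that closeness: its best were Prrg2 (0.817), Vrk3 (0.776) and Pced1b (0.762).

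Since 9 of the 10 genes rose together, the promoter sequences held for them by RefSeq (GRCm38.p6) were searched for short motifs. These were motifs of the factors among the 10 genes and that of AP-1, which is not among them. Windows of 300 bases, 250 before to 50 after a gene start, were found for 6 of the 10 genes (Csf1, Csf2ra, Csf3r, Irf8, Runx1 and Cebpa), 8 windows in all. Both strands were searched for GAGGAAGT (the PU.1 form of an ETS site), GGAANNGAA (an ETS and IRF composite site), TGTGGTTT (RUNX), TTGCNNAA (C/EBP) and TGANTCA (AP-1). The PU.1 form was found in none of the 8 windows and in 3.20% of all 32851 windows, the RUNX motif in none and in 1.78%, the C/EBP motif in none and in 10.8%, and the AP-1 motif in none and in 7.81%. The composite site was found in 1 window, that of the inner start of Runx1, and in 8.24% of all windows. It occurred there once on each strand, and the pair of matches does not overlap. A match of letters is a description and not a binding site. The 250 bases before the start are shown for that window, for the outer start of Irf8, which had the largest difference in log2(1 + FPKM), and for Csf1, the ligand gene that rose; matches to the composite site are in capitals, and the bases are written in the direction of transcription. The Runx1 stretch, chr16:92697330-92697579 on the minus strand, lies within the annotated span of the gene and holds no annotated exon, and its matches begin 55 and 15 bases before the start. The Irf8 stretch is chr8:120736108-120736357 on the plus strand, and the Csf1 stretch is chr3:107760470-107760719 on the minus strand; neither holds an annotated exon.
Runx1: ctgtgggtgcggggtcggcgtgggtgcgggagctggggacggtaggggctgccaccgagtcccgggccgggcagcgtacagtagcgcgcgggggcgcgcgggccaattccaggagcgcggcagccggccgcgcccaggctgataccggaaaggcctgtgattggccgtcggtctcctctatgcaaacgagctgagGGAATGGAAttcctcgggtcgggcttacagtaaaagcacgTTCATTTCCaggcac
Irf8: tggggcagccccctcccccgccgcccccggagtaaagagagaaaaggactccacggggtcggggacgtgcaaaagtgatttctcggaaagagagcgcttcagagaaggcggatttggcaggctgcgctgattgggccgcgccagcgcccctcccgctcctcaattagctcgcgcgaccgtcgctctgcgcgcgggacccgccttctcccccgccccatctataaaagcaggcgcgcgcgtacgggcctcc
Csf1: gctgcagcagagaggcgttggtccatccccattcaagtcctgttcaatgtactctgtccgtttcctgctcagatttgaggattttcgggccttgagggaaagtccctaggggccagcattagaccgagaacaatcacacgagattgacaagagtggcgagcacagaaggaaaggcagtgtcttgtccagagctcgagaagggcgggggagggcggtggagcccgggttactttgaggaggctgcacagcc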

How the data were processed

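Spinal cord RNA of 16 mice was sequenced, with 1 library per mouse and groups taken from the sample labels. The log2 values were deposited by the authors as log2(1 + FPKM): the submitters' processing notes name Trimmomatic for trimming, TopHat for alignment against the mm10 build and Cufflinks for quantification, in roles given by the study's methods. Genes at 0 in 8 or more mice were removed and the values adjusted for batch with ComBat; versions and the covariates given to ComBat are not given in the sources used here. The table held 18167 genes, of which 542 had a value below 0. Each pair of groups was compared in its own limma 3.58.1 fit (R 4.3.3), testing both directions, and the age by genotype contrast in 1 fit of all 16 mice. Correlations, sums and promoter matches were computed in Python 3.11.15 with pandas 2.3.3 and NumPy 2.4.6, and figures were drawn with matplotlib 3.10.9. The limma step was tested only on simulated normal values, with a shift larger than the differences of the 10 genes with 1 added to FPKM. Shifts of their size and the effect of the batch adjustment were not covered. Named genes were all 10 members and, from each list, its most abundant gene, genes near 0, genes called in opposite directions and up to 3 called genes with the largest increase and 3 with the largest decrease in WO vs. MO, with the 3 genes of highest Pearson r per member. Other called genes and single uncalled genes were named after their values were seen. Some genes of the lists are counted but not reported by name here. The members and lists were chosen with earlier results of these data known. Gene positions and exons are from GENCODE M21 (GRCm38). Alternatives were single-batch fits, batch as a term, a replicate block, a filter on low levels, another pseudocount, quantile normalization, all groups in 1 fit, an intensity trend, a test against a fold change of 1.2 and leaving out each mouse.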

Additional observations from a re-analysis of the deposited data

Results flagged for a closer look

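The difference between old and young mice differed between the genotypes, by limma on all 16 mice, in 9 of the 10 genes. The value of (MO − MY) − (WO − WY) on the log2 scale was 0.71 for Csf1, 1.15 for Csf1r, 0.88 for Csf2ra, 1.34 for Csf2rb and 1.38 for Csf3r. It was 1.54 for Spi1, 1.85 for Irf8, 0.81 for Runx1 and 1.05 for Cebpa, with limma FDR values from 6.43e-05 (Csf1r and Csf2rb) to 0.00796 (Csf2ra). In a search of the 10 genes within WO and within MO, 20 sets of 5 mice, for a mouse far from the others of its group, none was found.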

How the results depend on the processing

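In WO vs. MO, MY vs. MO and (MO − MY) − (WO − WY), 9 of the 10 genes were called under the settings tried, with these exceptions: a test against a fold change of 1.2 left 8 in MY vs. MO and 8 in (MO − MY) − (WO − WY), and a filter at a mean level of 1 removed Csf2rb and Runx1 and left 7. None of the 10 was called in WY vs. WO or WY vs. MY under any setting tried. Across settings the difference in WO vs. MO ranged from 1.23 to 1.33 for Csf1r, from 1.79 to 2.35 for Irf8, from 0.65 to 1.00 for Csf2ra, from 1.25 to 2.75 for Csf2rb and from 0.70 to 2.01 for Runx1, the highest of Irf8, Csf2rb and Runx1 with 0.1 in place of 1 added to FPKM. That setting gave 2.76 for Csf2rb and 2.09 for Runx1 in (MO − MY) − (WO − WY). WO vs. MO within batch 2 was added after seeing the data and called 811 genes, 9 of the 10 among them.

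The number of genes called moved by more than 1.5 times as follows. With 0.1 added to FPKM it was 1483 in MY vs. MO (890 with 1), 1529 in WO vs. MO (836) and 1548 in (MO − MY) − (WO − WY) (1020); low genes have larger log2 differences on that scale. A test against a fold change of 1.2 gave 608 in (MO − MY) − (WO − WY) and 3 in WY vs. WO (46). WY vs. WO gave 73 with batch 1 alone and 80 with batch as a term. WY vs. MY gave 2 with genes of a mean of at least 1, 4 with all groups in 1 fit and 2 with an intensity trend (1). Leaving out 1 mouse at a time gave 7 (without WY3) to 64 (without WO4) genes in WY vs. WO, with 26 without WO2, 27 without WO3, 23 without WY1 and 30 without WY2, and 1 to 5 in WY vs. MY, the most without WY1. By direction, the number called lower in MY vs. MO (143) was 258 with batch 1 alone, with batch as a term and with the replicate block, and 250 with 0.1 added; that in WO vs. MO (94) was 257 with 0.1 added and 59 within batch 2. The number called negative in (MO − MY) − (WO − WY) (175) was 315 with 0.1 added, 277 with quantile normalization, 45 in the test against a fold change of 1.2, 78 without WY1 and 366 without WY2. The number called higher was 1233 in MY vs. MO (747) and 1272 in WO vs. MO (742) with 0.1 added, and 563 in (MO − MY) − (WO − WY) (845) in the test against a fold change of 1.2. Across settings, WY vs. WO gave 1 to 20 genes higher (9) and 2 to 60 lower (37), and WY vs. MY 1 to 4 higher (1) and 0 to 2 lower (0). The causes of these shifts were not tested.

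Signs turned only for uncalled values close to 0. In WY vs. WO, Runx1 gave 0.022 with batch 1 alone, with batch as a term and with the replicate block. Csf2rb in WY vs. MY gave 0.0090 with quantile normalization. Leaving out 1 mouse gave −0.12 to 0.049 (Il34) and −0.023 to 0.071 (Csf1r) in WY vs. WO. In WY vs. MY it gave −0.0903 to 0.00034 (Csf1), −0.080 to 0.090 (Il34), −0.12 to 0.071 (Csf2ra), −0.022 to 0.016 (Csf2rb), −0.022 to 0.11 (Irf8) and −0.048 to 0.014 (Runx1). For Il34 in (MO − MY) − (WO − WY) it gave −0.0018 to 0.17. The causes were not tested.

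Mice of different groups share replicate numbers. Deviations of same-numbered mice from their group means correlated at 0.085 to 0.18 in MY vs. MO, at −0.21 to 0.091 in WO vs. MO, at −0.13 to 0.38 in WY vs. WO and at −0.20 to −0.019 in WY vs. MY. In no comparison did every pair exceed 0.1, so the numbers were not taken to pair the mice. In MY vs. MO, all 3 values lay above those of differently numbered mice (at most 0.068), a hint from the data and not from the design. With the replicate block limma called 1108 genes in MY vs. MO, 840 in WO vs. MO, 63 in WY vs. WO, 1 in WY vs. MY and 1008 in (MO − MY) − (WO − WY), and 9, 9, 0, 0 and 9 of the 10 genes. Each group held 3 or 5 mice and the depth behind single values is not used here.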
